A study of Arabidopsis thaliana with 4 samples.

Results

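The 42 genes described here encode the nuclear-encoded proteins that harvest light and build the photosystems of the Arabidopsis chloroplast. They were chosen by locus name from a written list of LHCB, LHCA, PSA and PSB genes. All 42 of them, read by 43 probes, were found among the 25665 loci named on the array, and all 42 passed the filter on dim probes. Transcript levels were compared between ang3, a mutant known to carry an allele of the ribosomal protein gene RPL5B, and Ler (Landsberg erecta), the control. No further treatment is named for either genotype, and both were germinated at 21 °C under 16 h of light after 3 days in the cold. According to the sample labels the tissue was shoot apex at stage 1.02, whereas the series text describes whole green parts, cotyledons included, at a later stage. On each of 4 two-colour Agilent arrays ang3 RNA carried one dye and Ler RNA the other, with ang3 in Cy5 on replicates 1 and 3 and in Cy3 on replicates 2 and 4.

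As background, light is absorbed by antenna proteins that hold chlorophyll and carotenoids, and its energy passes to the reaction centres of photosystem II and photosystem I. LHCB1, LHCB2 and LHCB3 form the trimers of the major antenna, LHCB4, LHCB5 and LHCB6 are the monomeric antenna that links the trimers to the core of photosystem II, and LHCA proteins are the antenna of photosystem I. The reaction centre cores themselves are encoded in the chloroplast genome, while the outer subunits and the antenna are encoded in the nucleus, and their genes are expressed mainly in green cells of leaves and cotyledons in the light.

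Between 19678 and 21332 probes were well above background in the ang3 channel, against 19224 to 21128 in the Ler channel, of 37478 probes per array. No spot of these genes or of others was saturated. The spots of these genes were among the brightest on the array. Of the 100 brightest tested features 26 were antenna or photosystem genes, their median brightness rank was 45 of 20155, and LHCB6, LHCB1.4 and LHCB1.2 held ranks 1, 2 and 3. On all 4 arrays 35 of the 42 were read from the scan at low detector gain, as flagged in the files. Ratios are given as log2 of ang3 over Ler, so a negative value means a lower level in ang3, and n = 4 arrays throughout unless stated. Precision is limited by the number of arrays, and the labels do not say whether arrays of opposite dye shared extracts, so p-values may measure partly technical spread.

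Most antenna and photosystem genes had lower transcript levels in ang3 than in Ler, by modest amounts. Of the 42 genes 31 were lower in ang3 by limma's moderated test over all tested features (adjusted p threshold 0.05), where 11.2% of those features were called lower. A single gene, LHCB4.3, was higher, where 15% of all features were called higher, and 10 genes were not called. The fitted log2 ratio was below 0 for 41 of the 42, with a median of -0.26 and a range of -0.57 to 0.24, beside a median of 0.01 over all 20155 features. Ratios were below 0 on all 4 arrays for 25 genes, a pattern shown by 19% of all features, and above 0 on all 4 for 1 gene, beside 25%. In 19 genes all ang3 channel levels lay below all Ler channel levels, as in 9.28% of all features, and in 0 genes did all ang3 levels lie above all Ler levels, beside 13.2%. In RNA from tissue of several cell types, fewer cells of a type and less RNA per cell cannot be told apart.

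**Figure D1:**
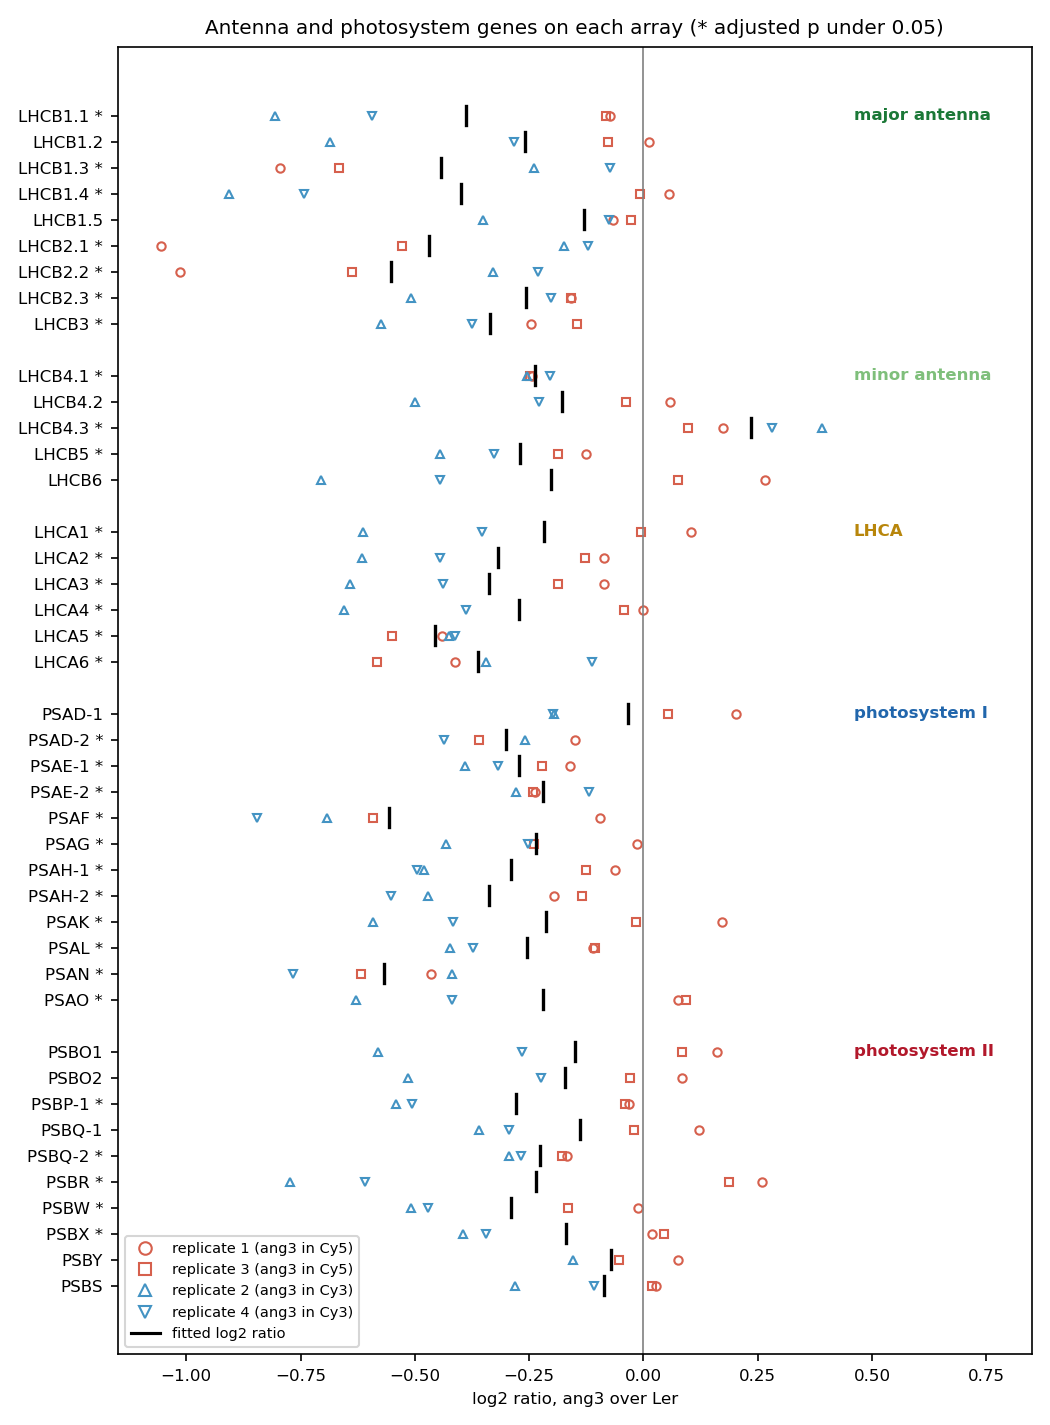
Log2 ratio of ang3 over Ler (x axis) for each of the 42 genes (rows, grouped by class) on each of 4 arrays, with circles and squares for arrays with ang3 in Cy5, triangles for arrays with ang3 in Cy3, and a black bar for the fitted ratio. Black bars lie left of 0 for 41 genes and right of 0 for LHCB4.3 alone, and the red symbols of most genes lie right of the blue ones, while those of LHCB1.3, LHCB2.1, LHCB2.2, LHCB4.3, LHCA5 and LHCA6 lie left.

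The plot of ratios by array shows how far the arrays of opposite dye differed within a gene. The call of a gene rests on the spread between arrays of the same dye orientation, since the fit holds a dye intercept, so its standard error (SE) can be far below the standard deviation (SD) of the 4 ratios. Of the 31 genes called lower 24 had ratios below 0 on all 4 arrays. The other 7, LHCB1.4, LHCA1, LHCA4, PSAK, PSAO, PSBR and PSBX, were at or above 0 on at least 1 array with ang3 in Cy5. Without the dye intercept 15 genes were called lower, beside 8.23% of all features. Without replicate 3 the count was 5, beside 0.804% of all features, and under median centring, without loess, it was 8, beside 2.11%. Under the other alternatives the count was 15 without replicate 2 (beside 4.56% of all features), 20 without replicate 1 (6.03%) and 27 without replicate 4 (4.73%). It was 21 with the processed signals or with the authors' series table (12% each), 27 with a normexp offset of 0 (9.93%), 28 without a filter (5.35%), 32 with a stricter filter (12.7%), 31 with the mean of probes (11.2%) and 31 with a loess fitted without the probes of these genes (11.3%).

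Of the 9 genes of the major antenna 7 were lower in ang3, beside 11.2% of all features, and 2 were not called, with a median log2 ratio of -0.39. With median centring 5 were lower (beside 2.11% of all features), without the dye intercept 3 (8.23%) and without replicate 3 also 3 (0.804%). Summed over the 9 genes, the normalized linear channel level ranged from 367104 to 461639 in ang3 and from 487359 to 585790 in Ler, with no overlap between the genotypes. LHCB1 genes encode the most abundant trimer protein. LHCB1.2, LHCB1.1 and LHCB1.3 lie side by side on chromosome 1, and LHCB1.5 and LHCB1.4 side by side on chromosome 2. Their coding sequences are nearly identical, so probes of one gene may also capture transcripts of its copies, and the split between them is uncertain.

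LHCB1.1 (At1g29920) had log2 ratios of -0.07, -0.81, -0.08 and -0.59 on replicates 1 to 4. Its ratio was close to 0 on both arrays with ang3 in Cy5 and clearly below 0 on both with ang3 in Cy3, and the ang3 levels, 15.52 to 15.91 on the log2 scale, did not overlap the Ler levels, 15.92 to 16.51. The fitted log2 ratio was -0.39 (SE 0.047, SD 0.37, adjusted p = 0.0104). LHCB1.4 (At2g34430) followed the same order, with 0.06, -0.91, -0.01 and -0.74, and was fitted at -0.40 (SE 0.043, SD 0.495, adjusted p = 0.00897). In this gene 1 array lay above 0, and the levels of the genotypes overlapped. LHCB1.2 (At1g29910), at 0.01, -0.69, -0.08 and -0.28, was again lowest on the arrays with ang3 in Cy3 and was not called at -0.26 (adjusted p = 0.0578).

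LHCB1.3 (At1g29930) showed the opposite order, with log2 ratios of -0.79, -0.24, -0.67 and -0.07. Here the 2 arrays with ang3 in Cy5 were the low ones, although the gene lies next to LHCB1.1 and encodes the same kind of protein. Its fitted ratio was -0.44 (SE 0.046, SD 0.342, adjusted p = 0.00876), with ang3 levels of 11.12 to 11.65, all below the Ler levels of 11.72 to 11.93. LHCB1.5 (At2g34420) had -0.07, -0.35, -0.03 and -0.07 and was not called at -0.13 (adjusted p = 0.141), since replicate 2 alone was well below 0. Without a dye intercept none of the 5 LHCB1 genes was called, with adjusted p of 0.0878 for LHCB1.1, 0.0524 for LHCB1.3 and 0.156 for LHCB1.4.

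All 3 LHCB2 genes, whose proteins form trimers with LHCB1 and are phosphorylated during state transitions, were lower in ang3. LHCB2.2 (At2g05070) had log2 ratios of -1.01, -0.33, -0.64 and -0.23, all below 0 and lowest on the arrays with ang3 in Cy5. Its ang3 levels, 10.25 to 10.90, lay below its Ler levels, 11.13 to 11.31. The fitted ratio of -0.55 (SE 0.070, SD 0.352, adjusted p = 0.011) corresponds to 68.2% of the Ler level. LHCB2.1 (At2g05100), 6 genes away on chromosome 2, had -1.05, -0.17, -0.53 and -0.12. Replicate 1 was far below the others, and the gene was called at -0.47 (SE 0.090, SD 0.43, adjusted p = 0.0231) but not without a dye intercept (adjusted p = 0.0783), without replicate 2 (0.0884), without replicate 4 (0.0743), with the processed signals (0.0506) or with the authors' series table (0.0507). LHCB2.3 (At3g27690), on chromosome 3, had -0.16, -0.51, -0.16 and -0.20 and was lower by the fit at -0.26 (adjusted p = 0.0344). It lost its call in 7 of 13 alternatives. Among these were the processed signals (adjusted p = 0.0663), median centring (0.315) and the fits without replicates 1, 2 and 3 (0.108, 0.0700 and 0.144). Unlike in the other LHCB2 genes, replicate 2 was the low array. LHCB3 (At5g54270), the third trimer protein, had -0.25, -0.57, -0.15 and -0.38 and was fitted at -0.34 (SE 0.048, adjusted p = 0.0133) with non-overlapping levels.

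The minor antenna was mixed, with 2 of 5 genes lower, 1 higher and 2 not called, and a median log2 ratio of -0.20. Of all features 11.2% were lower and 15% higher. With median centring 0 of the 5 were lower and 1 higher (beside 2.11% and 34.5% of all features). Without replicate 2 the counts were 0 and 0 (4.56% and 5.78%), as they were without replicate 3 (0.804% and 1.86%). LHCB4 encodes CP29, which occurs in Arabidopsis in 3 forms from separate genes. LHCB4.1 (At5g01530) had log2 ratios of -0.24, -0.26, -0.25 and -0.20. These were the most even values of any of the 42 genes (SD 0.0232), with no separation by dye, and the fit gave -0.24 (SE 0.034, adjusted p = 0.0131). The call of LHCB4.1 was absent with median centring (adjusted p = 0.31) and without replicates 1, 2 and 3 (0.0521, 0.0518 and 0.0817). LHCB4.2 (At3g08940) had 0.06, -0.50, -0.04 and -0.23 and was not called at -0.18 (adjusted p = 0.0758).

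LHCB4.3 (At2g40100), the form also called LHCB8, had log2 ratios of 0.17, 0.39, 0.10 and 0.28. All 4 arrays were above 0, although the ang3 levels of 13.30 to 13.59 just met the Ler levels of 13.10 to 13.31. The fitted ratio of 0.24 (SE 0.039, SD 0.128, adjusted p = 0.0167) corresponds to 118% of the Ler level. The call was absent without replicate 1 (adjusted p = 0.0719), without replicate 2 (0.0629) and without replicate 3 (0.0811), where 8.33%, 5.78% and 1.86% of all features were called higher. Within arrays LHCB4.3 exceeded LHCB4.1 by 0.42, 0.65, 0.34 and 0.49 (mean log2 difference 0.47), with an exact two-sided sign-flip p of 0.125, the smallest that 4 arrays allow. LHCB5 (At4g10340), the monomer CP26, had log2 ratios of -0.13, -0.45, -0.19 and -0.33, all below 0, with ang3 levels below all Ler levels, and was lower at -0.27 (SE 0.039, adjusted p = 0.0134). LHCB6 (CP24), the brightest feature on the arrays, had 0.27, -0.71, 0.08 and -0.44, above 0 where ang3 was in Cy5 and below 0 where it was in Cy3, and was not called at -0.20 (SE 0.061, adjusted p = 0.0667).

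All 6 LHCA genes were lower in ang3, beside 11.2% of all features, with a median log2 ratio of -0.33. The count was 1 with median centring (beside 2.11% of all features), 1 without replicate 3 (0.804%) and 2 without the dye intercept (8.23%). LHCA1 lost its call in 9 of 13 alternatives and LHCA4 in 7. LHCA1 to LHCA4, which form the antenna belt bound to photosystem I, were fitted between -0.34 (LHCA3) and -0.22 (LHCA1), with adjusted p of 0.0133 and 0.045 for those genes. LHCA2 was fitted at -0.32 (adjusted p = 0.0122) and LHCA4 at -0.27 (adjusted p = 0.0252). LHCA3 (At1g61520) had log2 ratios of -0.09, -0.64, -0.19 and -0.44 and was below 0 on each array. LHCA5 and LHCA6 are known as minor proteins that join photosystem I to the chloroplast NDH complex, which returns electrons to the plastoquinone pool. LHCA5 (At1g45474) had -0.44, -0.42, -0.55 and -0.41 on replicates 1 to 4, nearly the same on each array in both dye orientations. Its ang3 levels of 12.78 to 12.89 stood apart from its Ler levels of 13.25 to 13.33. The fitted ratio of -0.46 (SE 0.037, SD 0.0638, adjusted p = 0.00741) corresponds to 72.9% of the Ler level.

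LHCA5 was the only one of the 42 genes with a second probe, whose log2 ratios were -0.17, -0.54, -0.42 and -0.56 (mean -0.42). LHCA6 (At1g19150) had -0.41, -0.34, -0.58 and -0.11 and was fitted at -0.36 (SE 0.056, adjusted p = 0.0147), with levels of the genotypes that did not overlap. LHCA5 and LHCB2.2 were the members called lower under all 9 alternative processings and also after leaving out any 1 array.

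Of the 12 nuclear subunits of photosystem I 11 were lower in ang3, beside 11.2% of all features, and 1 was not called, with a median log2 ratio of -0.26. Their summed channel level was 524947 to 641699 in ang3 and 659470 to 741288 in Ler, without overlap. PSAN and PSAF sit on the lumen side, where plastocyanin delivers electrons, and they held the lowest fitted ratios of the 42 genes. PSAN (At5g64040) had log2 ratios of -0.46, -0.42, -0.62 and -0.77. All arrays were well below 0 in both dye orientations, and ang3 levels of 15.27 to 15.45 lay below Ler levels of 15.79 to 16.07. Its fitted ratio was -0.57 (SE 0.069, SD 0.159, adjusted p = 0.0104), or 67.5% of the Ler level. PSAF (At1g31330) had -0.09, -0.69, -0.59 and -0.85. Replicate 1 stood near 0 and the other arrays far below, and the ang3 levels of 15.95 to 16.33 still lay below the Ler levels of 16.43 to 16.79. The fit gave -0.56 (SE 0.088, SD 0.325, adjusted p = 0.0154), a call lost without replicate 2 (adjusted p = 0.0544) and without replicate 4 (0.061).

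**Figure D2:**
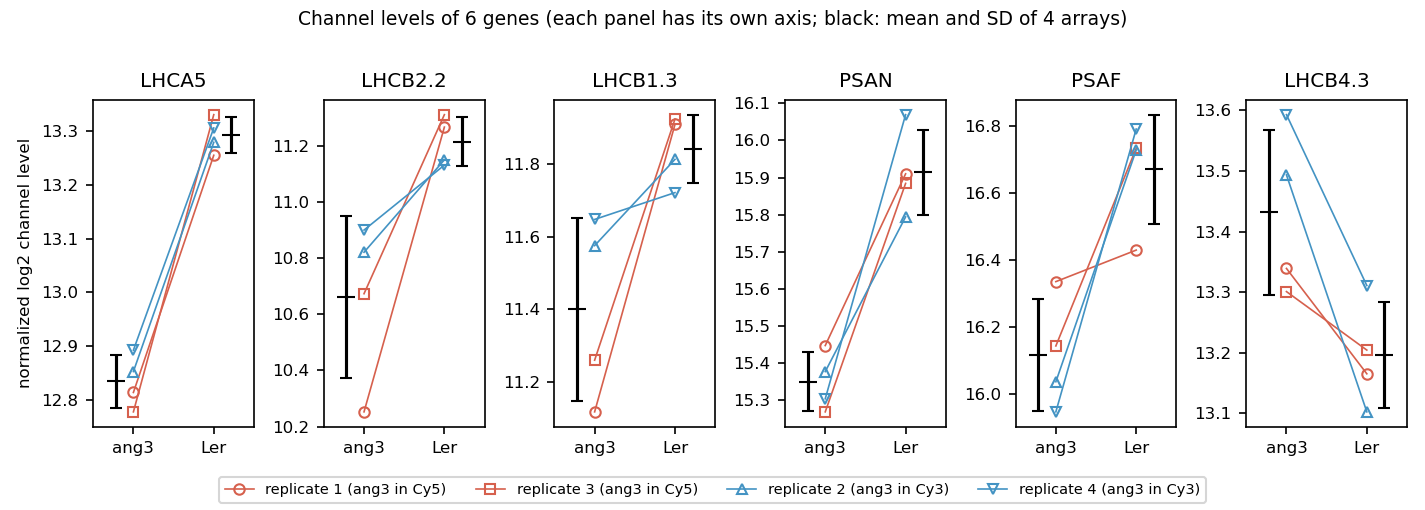
Normalized log2 channel level in ang3 (left) and Ler (right) of 6 genes, with a line for each array (red, ang3 in Cy5; blue, ang3 in Cy3), black bars for the mean and SD of 4 arrays, and a separate axis for each gene. Lines rise to the right in LHCA5, LHCB2.2, LHCB1.3, PSAN and PSAF, with no overlap between genotypes, and fall to the right in LHCB4.3, where the lowest ang3 level lies just below the highest Ler level.

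The plot of channel levels shows that in LHCB2.2 and LHCB1.3 the arrays differed mostly in the ang3 channel. LHCB2.2 had an SD of 0.288 in ang3 and 0.0876 in Ler, and LHCB1.3 had 0.253 in ang3 and 0.0945 in Ler. In LHCA5 both genotypes were tight, with an SD of 0.0493 in ang3 and 0.0326 in Ler.

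PSAD and PSAE form the stromal docking site for ferredoxin and are each encoded by a pair of genes. PSAD-1 (At4g02770) had log2 ratios of 0.20, -0.19, 0.05 and -0.20 and was not called at -0.03 (SE 0.040, adjusted p = 0.562), with arrays of opposite dye on opposite sides of 0. PSAD-2 (At1g03130) had -0.15, -0.26, -0.36 and -0.44 and was lower at -0.30 (SE 0.055, adjusted p = 0.0202). PSAD-1 exceeded its partner on each array, by 0.35, 0.06, 0.41 and 0.24 (mean 0.27, exact two-sided sign-flip p = 0.125, the smallest possible). PSAE-1 (At4g28750) and PSAE-2 (At2g20260) were both lower, at -0.16, -0.39, -0.22 and -0.32 for PSAE-1 and -0.24, -0.28, -0.24 and -0.12 for PSAE-2. Their fitted ratios were -0.27 and -0.22 (adjusted p of 0.0118 and 0.0223). PSAE-1 lost its call in 2 of 13 alternatives and PSAE-2 in 6.

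PSAH, PSAL and PSAO lie on the side of photosystem I where LHCII trimers dock during state transitions. PSAH-1 (At3g16140) had log2 ratios of -0.06, -0.48, -0.12 and -0.49, and PSAH-2 (At1g52230) had -0.20, -0.47, -0.13 and -0.55. Both were nearer to 0 with ang3 in Cy5, and both had ang3 levels below all Ler levels, with fitted ratios of -0.29 (adjusted p = 0.0103) and -0.34 (adjusted p = 0.00905). PSAL was fitted at -0.25 (adjusted p = 0.0119) and PSAO at -0.22 (adjusted p = 0.0296). PSAL lost its call in 2 of 13 alternatives and PSAO in 7. PSAG and PSAK, membrane subunits beside the LHCA belt, were fitted at -0.23 (adjusted p = 0.0388) and -0.21 (adjusted p = 0.0408), and both lost their call in 10 of 13 alternatives, including each fit that left out an array. PSAK lay above 0 on replicate 1 at 0.17, and PSAO on replicates 1 and 3, both with ang3 in Cy5, at 0.08 and 0.09.

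Of the 10 nuclear genes of photosystem II 5 were lower in ang3, beside 11.2% of all features, and 5 were not called, with a median log2 ratio of -0.17. The level summed over the 9 genes measured on all arrays was 466185 to 590257 in ang3 and 564831 to 659097 in Ler, with overlap between the genotypes. PSBO, PSBP and PSBQ are extrinsic proteins that shield the water-oxidizing manganese cluster on the lumen side. PSBO1 (At5g66570) had log2 ratios of 0.16, -0.58, 0.08 and -0.27, and PSBO2 (At3g50820) had 0.09, -0.51, -0.03 and -0.22. Neither was called, at -0.15 (adjusted p = 0.129) and -0.17 (adjusted p = 0.0931), and in both genes the arrays with ang3 in Cy3 were the low ones. PSBP-1 (At1g06680) had -0.03, -0.54, -0.04 and -0.51 and was lower at -0.28 (SE 0.033, SD 0.282, adjusted p = 0.0103).

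PSBQ-1 (At4g21280) had 0.12, -0.36, -0.02 and -0.29 and was not called at -0.14 (adjusted p = 0.0655). PSBQ-2 (At4g05180) was more even at -0.17, -0.29, -0.18 and -0.27, with ang3 levels below all Ler levels, and was lower at -0.23 (SE 0.033, adjusted p = 0.0136). PSBR (At1g79040), a small lumen-side protein needed for stable binding of PSBP, had 0.26, -0.77, 0.19 and -0.61. Its sign followed the dye, with the widest spread of the 42 genes (SD 0.532), and although it was lower by the fit at -0.23 (SE 0.044, adjusted p = 0.0216) it was not called in 7 of 13 alternatives, among them the fit without the dye intercept (adjusted p = 0.413), median centring (0.368) and the fits without replicates 1, 2 and 3 (0.0645, 0.0699 and 0.121).

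PSBW (At2g30570), a small membrane subunit, had log2 ratios of -0.01, -0.51, -0.16 and -0.47 and was lower at -0.29 (SE 0.041, adjusted p = 0.0131). PSBX, another such subunit, was lower at -0.17 (adjusted p = 0.0262) but in none of the fits that left out an array. For PSBY the spot of replicate 4 was flagged as an outlier and dropped, and over the other 3 arrays the fitted ratio was -0.07 (adjusted p = 0.37). PSBS (At1g44575), the pH sensor that switches excess excitation into heat, had 0.03, -0.28, 0.02 and -0.11. Only replicate 2 stood clearly below 0, and PSBS was not called at -0.09 (SE 0.043, adjusted p = 0.196).

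Set side by side, the 20 antenna genes had a median log2 ratio of -0.30 with 15 lower and 1 higher, photosystem I a median of -0.26 with 11 of 12 lower, and photosystem II a median of -0.17 with 5 of 10 lower, beside 11.2% of all features. With median centring 6, 2 and 0 genes of these classes were lower (2.11% of all features), without replicate 3 the counts were 4, 1 and 0 (0.804%), and without the dye intercept 7, 7 and 1 (8.23%). On replicates 1 to 4 the antenna median was -0.09, -0.50, -0.14 and -0.30. Photosystem I had medians of -0.10, -0.43, -0.18 and -0.42, and photosystem II had 0.05, -0.45, -0.02 and -0.29. The antenna and photosystem I were thus below 0 on all 4 arrays, whereas photosystem II was slightly above 0 on replicate 1. The photosystem II median was nearer to 0 than that of photosystem I on replicates 1, 3 and 4 but not on replicate 2, and no test was made of this difference, because genes of a class are not replicates.

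**Figure D3:**
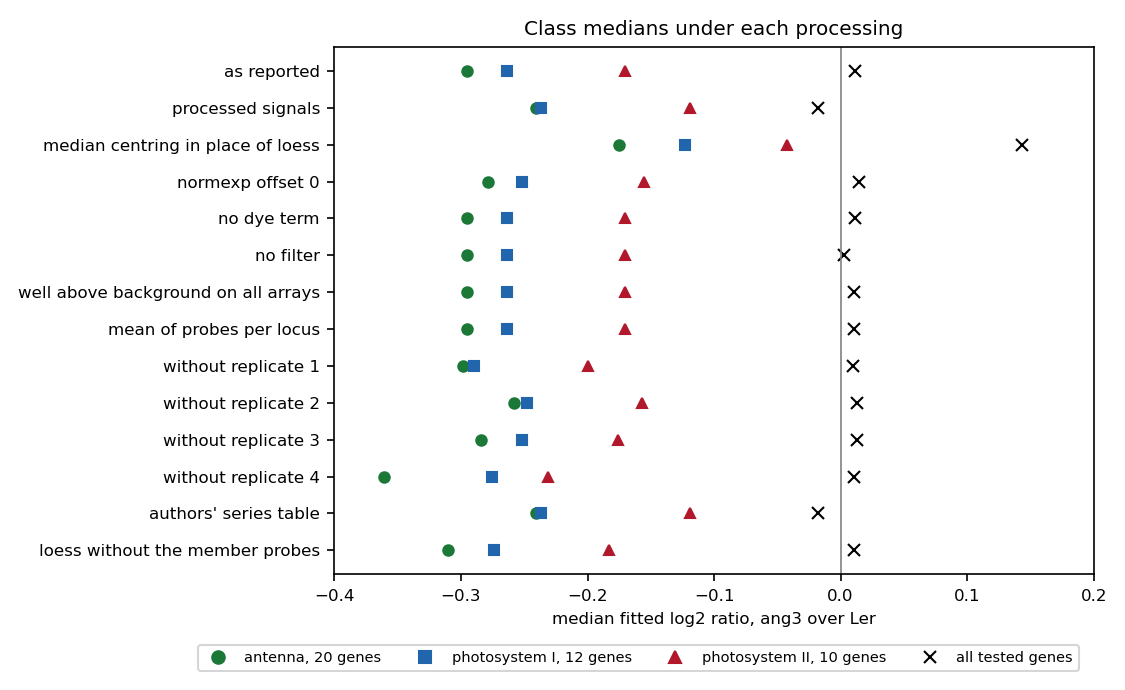
Median fitted log2 ratio of ang3 over Ler (x axis) of antenna, photosystem I and photosystem II genes and of all tested features under the reported processing and each alternative (rows). The 3 class medians lie left of the median of all features in each row, and median centring moves all of them to the right, to 0.143 for all features and -0.17, -0.12 and -0.04 for antenna, photosystem I and photosystem II.

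The plot of class medians shows a shared shift with the normalization. Median centring moved the median of all features from 0.011 to 0.143, so zero is not the same reference under both scalings. Relative to the median of all features, the median of the 42 genes was -0.269 as reported, -0.272 with median centring and -0.194 with the authors' processed signals. Photosystem II was nearest to 0 of the 3 classes in all 14 processings, which all draw on the same 4 arrays.

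The dye orientation split these genes more than it split most. With ang3 in Cy5 the median of their mean log2 ratios was -0.09, with 27 of 42 below 0, and with ang3 in Cy3 it was -0.39, with 41 of 42 below 0. Over all 20155 features these medians were 0.020 in Cy5 and 0.0035 in Cy3, with 8745 and 9916 features below 0. The limma dye intercept had an unadjusted p under 0.05 in 28 of the 42 (66.7%), beside 15% of all features, and 0 genes passed after Benjamini-Hochberg adjustment (smallest adjusted p = 0.238). In 24 of the 28 the Cy5 channel was the higher one. The other 4 were LHCB1.3, LHCB2.1, LHCB2.2 and LHCB4.3. Since orientation and array coincide, a dye effect and a contrast between replicates 1 and 3 and the other two cannot be told apart.

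**Figure D4:**
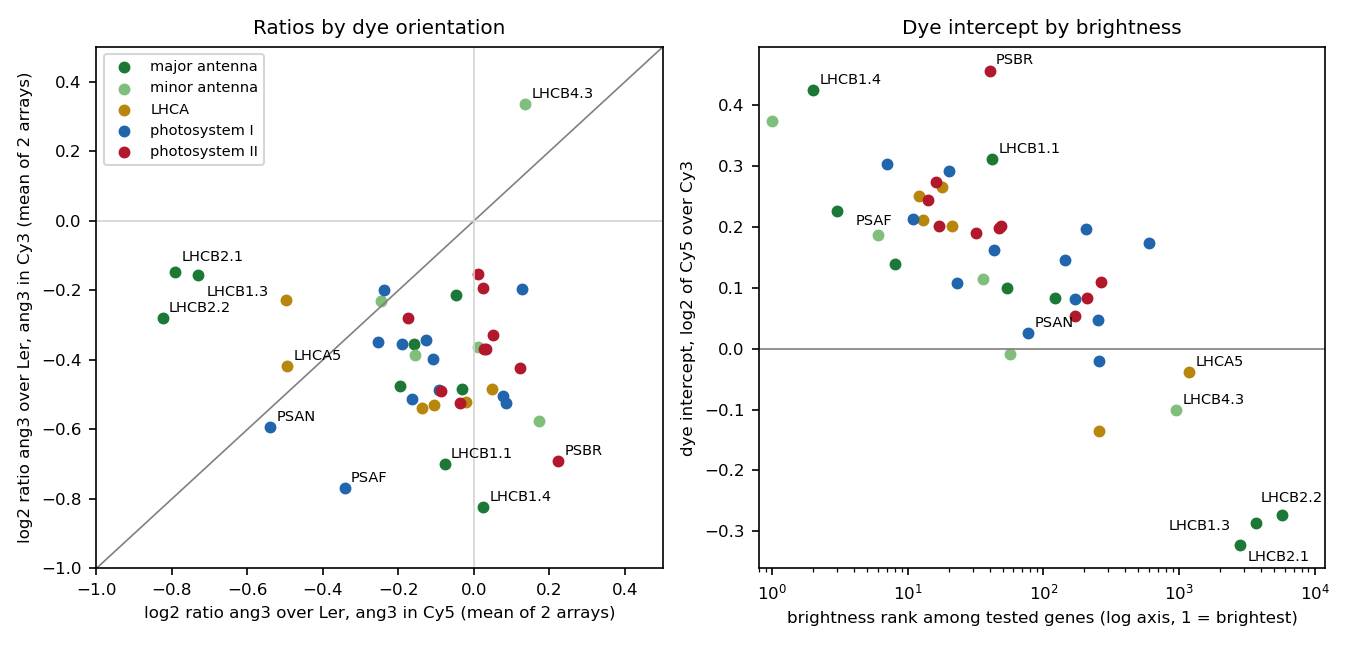
Left, mean log2 ratio of ang3 over Ler on the 2 arrays with ang3 in Cy5 (x axis) against the arrays with ang3 in Cy3 (y axis, 1 array for PSBY), with the diagonal marking equal ratios. Right, dye intercept (log2 of Cy5 over Cy3) against brightness rank on a log axis, where LHCB1.4 and PSBR lie at 0.42 and 0.46 and the dim LHCB1.3, LHCB2.1 and LHCB2.2 at -0.29, -0.32 and -0.27.

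As the plot of ratios by dye orientation shows, the sign of the dye intercept went with spot brightness. Across the 42 genes, which share the same arrays and hybridisations, the intercept correlated with mean channel level at a Pearson r of 0.845 and a Spearman rho of 0.804. Of 36 genes among the 500 brightest features 33 had a positive intercept, and of the 6 dimmer ones 1 did. LHCB2.2, LHCB1.3 and LHCB2.1 held brightness ranks 5704, 3681 and 2793, against 2 for LHCB1.4 and 42 for LHCB1.1. The same was frequent in bright spots of other genes, as 40 of the 74 other features among the brightest 100 (54.1%) had an unadjusted dye p under 0.05, all 40 with Cy5 higher. Those 74 features had a median log2 ratio of 0.10 with ang3 in Cy5 and -0.12 with ang3 in Cy3, so their 2 medians lay on either side of 0. Over all 42 genes both medians were below 0, as they were in the major antenna, LHCA and photosystem I. In photosystem II (0.03 and -0.37) and the minor antenna (0.01 and -0.36) they too lay on either side of 0. The fitted ratio weights both orientations equally, so a dye effect that is the same on all arrays cancels in it. By this balance, a gene measured on all arrays has the same fitted ratio with and without the dye intercept, whatever its values. Only the spread behind its test changes, and LHCB1.1 was not called by limma without the intercept (adjusted p = 0.0878).

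Between arrays, the ratios of the 42 genes followed the dye. Replicates 1 and 3 correlated across genes with r = 0.852 and replicates 2 and 4 with r = 0.754, while pairs of opposite dye gave r between -0.27 and 0.06. Over all features the 6 pairs gave 0.387 to 0.733. These values are across genes of the same arrays and describe them only. The unadjusted dye p was 0.05 or more in 14 genes, among them LHCA5, LHCA6, LHCB4.1, PSAN, PSAF, PSAD-2, both PSAE genes and PSBQ-2.

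Pairs of related genes were compared within arrays in 12 comparisons, with exact two-sided sign-flip tests whose smallest p is 0.125 and whose adjusted p were all 0.5 or more. The sign of the difference held on all 4 arrays in 3 pairs, LHCB4.3 over LHCB4.1, PSAD-1 over PSAD-2, and LHCB1.1 below LHCB1.2 (mean log2 difference -0.13). LHCB1.1 minus LHCB1.3 was 0.72, -0.57, 0.58 and -0.52. The difference thus changed sign with the dye, and its mean was 0.05 (SD 0.693, exact p = 0.75). LHCB2.1 and LHCB2.2 differed by 0.08 on average (SD 0.0863, exact p = 0.25), and the PSBO pair by 0.02 (SD 0.0882, exact p = 0.625).

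The authors required on an array a p below 0.05 together with a log2 ratio beyond 1 in either direction, and this was met on replicate 1 by 2 probes in the authors' deposited table, LHCB2.2 at -1.17 and LHCB2.1 at -1.10. No probe of the 42 genes met it on the other 3 arrays, and none met it in the higher direction, beside 0.687% to 0.901% of all tested probes in the lower direction per array. At a p under 0.05 alone, the authors' deposited table had 6, 18, 8 and 9 of the 43 probes lower on replicates 1 to 4, against 4.96%, 6.01%, 6.88% and 6.1% of all tested probes. LHCB1.3 was among the 6 on replicate 1 in the authors' deposited table (-0.89), and LHCB1.4 was the lowest on replicate 2 (-0.72).

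Genes that work beside the photosystems were mostly lower as well in the reported fit. Of 13 tested genes of electron transport and the ATP synthase 7 were lower and 0 higher, beside 11.2% and 15% of all features, with a median log2 ratio of -0.20. FD2, the main leaf ferredoxin that takes electrons from photosystem I, had ratios of -0.49, -0.59, -0.81 and -1.16 and was fitted at -0.76 (SE 0.108, adjusted p = 0.013). It was lower than any of the 42 genes, with all arrays well below 0. PETC, the Rieske protein of the cytochrome b6f complex, was at -0.34 (adjusted p = 0.00862), and LFNR2, a ferredoxin-NADP reductase, at -0.22 (adjusted p = 0.0151). Of 14 genes of assembly and antenna insertion 10 were lower and 0 higher (median -0.22), among them ALB3, the translocase that inserts LHC proteins, at -0.36 (adjusted p = 0.0108), and cpFTSY, the receptor of the chloroplast signal recognition particle, at -0.31 (adjusted p = 0.0118). PPL1, a PSBP-like lumen protein, was at -0.32 (adjusted p = 0.00879). LFNR2 lost its call in 4 of 13 alternatives, PETC, ALB3, cpFTSY and PPL1 in 2 each, and FD2 in 1.

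Of 10 genes of state transition and repair 6 were lower and 0 higher (median -0.21), beside 11.2% and 15% of all features. VDE1, violaxanthin de-epoxidase, was at -0.33 (adjusted p = 0.0322). DEG1, a lumen protease, was at -0.28 (adjusted p = 0.0151), and FTSH5, a thylakoid protease, at -0.24 (adjusted p = 0.0234). VDE1 lost its call in 6 of 13 alternatives, FTSH5 in 4 and DEG1 in 3. With median centring, where 2.11% of all features were lower, the lists of electron transport, assembly and repair had 1, 0 and 0 genes lower. Without replicate 3 none was lower, beside 0.804% of all features. With the processed signals or the authors' series table, where 12% were lower, the counts were 3, 7 and 2. Without replicate 2 they were 2, 6 and 0, beside 4.56%.

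The LHC-related stress proteins were split, with 4 of 8 lower and 2 higher, beside the same 11.2% and 15% of all features. ELIP1, an early light-induced protein, had log2 ratios of 0.25, 0.54, 0.39 and 0.57 and was higher at 0.43 (SE 0.040, adjusted p = 0.00791). Its close relative ELIP2 was lower, with -0.43, -0.31, -0.43 and -0.24 and a fitted -0.35 (SE 0.035, adjusted p = 0.00838), so the pair moved apart on each array. LIL3.1, which binds geranylgeranyl reductase, was at -0.37 (adjusted p = 0.0101). ELIP2 and LIL3.1 each lost their call in 2 of 13 alternatives, while ELIP1 kept its call in all 13.

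Among 18 tested regulators of photosynthesis genes 3 were lower, 2 were higher and 13 were not called (median -0.05), counts near the 11.2% lower and 15% higher of all features, and ABI4 was not well above background. GLK1, a transcription factor that activates antenna genes, had log2 ratios of 0.51, 0.49, 0.59 and 0.66 and was higher at 0.57 (SE 0.045, SD 0.079, adjusted p = 0.00738). All 4 arrays were well above 0 in both dye orientations, and the call held under all 13 alternatives. Its paralogue GLK2 had 0.28, -0.31, 0.31 and 0.00 and was not called at 0.07 (adjusted p = 0.437). With median centring, where 2.11% of all features were called lower and 34.5% higher, the regulators had 0 genes lower and 4 higher, and the LHC-related stress proteins 0 lower and 2 higher. GUN1, a plastid protein of retrograde signalling, was at -0.23 (adjusted p = 0.0145) and GUN5, a subunit of magnesium chelatase, at -0.30 (adjusted p = 0.015). GUN1 lost its call in 4 of 13 alternatives and GUN5 in 3.

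Marker lists of the tissue are given beside these ratios, against 11.2% lower and 15% higher over all features. Of 6 mesophyll markers 3 were lower and 1 higher, with a summed channel level of 347854 to 397158 in ang3 and 360400 to 365912 in Ler, which overlapped. RBCS2B, a Rubisco small subunit gene, was higher at 0.41 (adjusted p = 0.00744), while RBCS3B at -0.32 (adjusted p = 0.0229) and CA1, a carbonic anhydrase, at -0.25 (adjusted p = 0.0151) were lower. Of 6 tested meristem markers 3 were higher, STM at 0.36, KNAT1 at 0.32 and KNAT6 at 0.19 (adjusted p of 0.00879, 0.0115 and 0.0276), with a sum of 2277 to 2364 in ang3 and 1938 to 2035 in Ler. CLV3 and WUS, which define the stem cell niche, were not well above background on any array in either genotype. Of 6 vascular markers 1 was lower, 0 were higher and 5 were not called, with a median log2 ratio of 0.02. The lower one was SUC2, the phloem sucrose transporter, at -0.42 (adjusted p = 0.0166), and the list summed to 16951 to 19291 in ang3 and 21370 to 22750 in Ler. In the epidermis list 1 of 6 was lower (FDH, -0.19, adjusted p = 0.0184; sums 48632 to 51659 in ang3 and 50512 to 53229 in Ler), in the root list 1 of 4 tested was higher (SHR, 0.20, adjusted p = 0.0263; sums 4338 to 5124 in ang3 and 4122 to 4354 in Ler), and the only seed gene tested, LEC2, was not called. RHD6 and LRX1, root hair genes, and the seed genes SESA1, CRA1, OLEO1, ABI3 and CRU3 were each well above background on at most 1 array and were not tested. Of 13 alternatives, SHR lost its call in 6, FDH in 5, and CA1 and RBCS3B in 4 each. KNAT6 lost its call in 3, SUC2 in 2, and STM and KNAT1 in 1 each, while RBCS2B kept its call in all 13. With median centring 2.11% of all features were lower and 34.5% higher. The mesophyll and epidermis lists then each had 0 genes lower and 1 higher, and the vascular list 1 lower and 3 higher. The meristem list had 0 lower and 3 higher, and the root list 0 lower and 2 higher. The part of tissue composition in the antenna and photosystem ratios was not tested.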

How the data were processed

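Each of 4 arrays compared ang3 with Ler (n = 4, each array 1 replicate). Spot quantification used Agilent Feature Extraction 10.1.1.1, per the file headers. The deposited median spot and background intensity values are not normalized, while the processed signal intensities are background-subtracted and dye-normalized. The deposited log10 ratio, p-value and flags come from the authors' run on each array alone, and the authors' series table holds log2 ratios, which matched the processed signals with r = 1 and run as ang3 over Ler. No genome build is named, so no coordinates are given, and no sequences were used here.

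Median signals, used because mean signals were not analysed here, were corrected with normexp (offset 50) and normalized by loess in limma 3.58.1 (R 4.3.3). Spots flagged as outliers (9, 1, 6 and 2 per array) and control spots were left out. Testing required a probe well above background in 1 genotype's channel on 3 or more of the 4 arrays, and a locus was read by its brightest probe. Channel levels are after loess and Aquantile. The model (lmFit, eBayes) held genotype and a dye intercept (2 residual and 3.03 prior degrees of freedom) and Benjamini-Hochberg adjustment over 20155 features. The procedure was tested on simulated log2 changes of 1 in either direction. These are larger than any fitted ratio of the antenna and photosystem genes, so changes of their size were not covered. The paired comparisons used exact sign-flip tests. Figures were drawn with matplotlib 3.10.9 in Python 3.11.15.

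The members and lists were chosen with earlier results of these data known. Array values are given for the LHCB1, LHCB2 and LHCB4 genes, the paired PSA and PSB genes, PSBS and the 3 largest ratios of each class. Other lists name up to 3 genes with the smallest p. Their further members are counted only, and GLK2 was added as the paralogue of GLK1 after its value was seen. The alternatives were processed signals, median centring, offset 0, no dye intercept, no filter, a stricter filter, the mean of probes, the authors' series table, leaving out each array, and, chosen after seeing the data, a loess fitted without the 43 probes.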

Additional observations from a re-analysis of the deposited data

Results flagged for a closer look

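In 2 of the 41 genes measured on 4 arrays, 1 array stood apart from the others by more than Dixon's 95% criterion for 4 values, which chance alone does in about 1 of 20 groups. LHCB1.5 was at -0.35 on replicate 2 and between -0.07 and -0.03 on the other arrays. LHCB2.3 was at -0.51 on replicate 2 and between -0.20 and -0.16 on the others. In both genes ang3 was in Cy3 on the array that stood apart.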

How the results depend on the processing

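The 31 genes called lower became 8 with median centring, 15 without the dye intercept and 5 to 27 when 1 array was left out (20, 15, 5 and 27 without replicates 1 to 4). The processed signals and the authors' series table gave 21 each, offset 0 gave 27, no filter 28, the stricter filter 32, and the mean of probes and the loess without the 43 probes 31 each. The count of higher genes was 0 to 1 when an array was left out and 1 otherwise. Over all features, 2265 were lower and 3018 higher, 425 and 6947 with median centring, and 162 to 1215 and 374 to 1678 when an array was left out. The higher share of calls was 57.1% as reported, 46.8% with processed signals and 94.2% with median centring. Among the 42 genes and the genes named by rule from the other lists, uncalled ratios changed sign with median centring in LHCB1.5 (0.014), PSAD-1 (0.094), PSBY (0.025), PSBS (0.067), ATML1 (0.043) and KCS1 (0.0082), and with processed signals and the authors' series table in LEC2 (-0.14 each). Leaving out an array gave -0.071 to 0.0030 for PSAD-1, above 0 without replicate 3. The cause was not tested. Called lower under all 9 alternatives other than leaving out an array were 4 genes, LHCA5, LHCB2.2, PSAN and PSAF, and 37 of the 42 were below 0 under all alternatives run. No share of all features is available beside these counts, so how unusual they are is not known. The medians of antenna, photosystem I and photosystem II stayed below 0, at -0.36 to -0.26, -0.29 to -0.25 and -0.23 to -0.16 when an array was left out. Leaving out an array drops PSBY where too few values remain. The 4 arrays and 2 residual degrees of freedom limit the precision, and bright spots rest on the scan at low gain.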

Other observations

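Several further genes of light signalling, the plastid and the clock differed or varied between arrays. HY5, a light-signalling transcription factor, was higher in ang3 at a log2 ratio of 0.28 (limma adjusted p = 0.019), while SIG2, a sigma factor of the plastid RNA polymerase, was lower at -0.28 (adjusted p = 0.0167). OHP1 and OHP2, single-helix relatives of the antenna proteins, were both lower, at -0.21 (adjusted p = 0.0181) and -0.33 (adjusted p = 0.0126), and SEP2, a stress-enhanced relative, was higher at 0.21 (adjusted p = 0.0456). The plastocyanin genes PETE1 and PETE2 were lower at -0.23 (adjusted p = 0.0442) and -0.20 (adjusted p = 0.0177). The clock genes CCA1 and LHY had ratios of 0.31 and 0.41 that were not called (adjusted p of 0.229 and 0.0594), with replicate 4 the highest at 0.80 and 0.81. Of 13 alternatives, HY5 lost its call in 6, with processed signals among them, SIG2 in 4, OHP1 in 5, OHP2 in 2, SEP2 in 9, and PETE1 and PETE2 in 8 each. These genes were chosen after their values were seen.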
